A study of Mus musculus with 2 samples.

Results

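The Ms4a genes other than Ms4a1, which encodes CD20, were followed through the liver immune cells of dnTGFβRII (TG) and wild type (WT) mice. The members were 7 named genes, Ms4a2, Ms4a4b, Ms4a4c, Ms4a6b, Ms4a6c, Ms4a6d and Ms4a7, and 6 of them were among the 13528 genes of the filtered count table, with Ms4a7 present only in the library files. CD45+ liver cells were captured in 2 libraries on the BD Rhapsody system, which counts the transcripts and the antibody tags of each cell by unique molecular identifiers (UMIs), and 14 cell types and 30 clusters were named in the deposited metadata. dnTGFβRII cells shared the first library with cells of IFN-γ ARE-Del-/- mice, and wild type cells shared the second with cells of P40-/-IL-2Ra-/- mice, all C57BL/6 with a labelled age of 10 weeks, and the labels name no treatment. The metadata gave a genotype to 4647 TG cells of the first library and to 7282 WT cells of the second, and the cells of the other 2 genotypes are not named there. The dnTGFβRII transgene is a dominant negative TGF-β receptor II under a CD4 promoter, so it acts mainly in T cells, and the mice are studied as a model of primary biliary cholangitis. How many animals were pooled is not given in the sources used here. With 1 library for each genotype there were no replicates and no test was possible, genotype and library cannot be told apart, and every interval below is a 95% interval for counting error only.

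MS4A proteins are small membrane proteins that cross the membrane several times and often assemble with other receptors. MS4A2 is the β chain of the high affinity IgE receptor FcεRI of mast cells and basophils, where it strengthens the signal sent through the γ chain. MS4A4B is a T cell protein that associates with the co-stimulatory receptor GITR (CD357), while Ms4a4c, Ms4a6b, Ms4a6c, Ms4a6d and Ms4a7 are known from lymphocytes, monocytes and macrophages in differing mixtures, and several of them are raised by interferon.

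All members lie in a family cluster on mouse chromosome 19, and the annotation (GENCODE, GRCm38) places 19 Ms4a genes between bases 10962293 and 11640851. Ms4a4c (chr19:11404770-11427246), Ms4a4b (chr19:11443553-11467055), Ms4a6c (chr19:11469366-11482192) and Ms4a6b (chr19:11516512-11531256) follow each other on the forward strand. Only 2.31 kb separate the end of Ms4a4b from the start of Ms4a6c. Ms4a7 (chr19:11321039-11336146), Ms4a6d (chr19:11586604-11604849) and Ms4a2 (chr19:11615523-11623719) lie on the reverse strand, and all 7 are protein coding. The translated proteins of Ms4a4b and Ms4a4c, each of 226 residues, were 84.5% identical over their aligned residues. Those of Ms4a6b and Ms4a6c were 72.9% identical and those of Ms4a6b and Ms4a6d 71.3%, whereas MS4A2 shared 29.0% to 33.0% with the other members. Close copies can share reads. Of the 50-base words of Ms4a4c transcripts 8.19% also occurred in another family transcript, mostly in Ms4a4b. The shares were 5.85% for Ms4a6c, 3.44% for Ms4a6b and 2.24% for Ms4a4b. Some of these counts may therefore be split or lost between copies. The share of words does not give the share of UMIs, and reads shared between copies were not counted.

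The sequence just before the start site is shown for the neighbours Ms4a4b and Ms4a4c, which followed different cell types although they are close copies, with capitals at bases that differ or have no partner in their alignment. Both are forward strand promoter sequence from RefSeq (GRCm38.p6), 5′ to 3′, at chr19:11443408-11443557 for Ms4a4b and chr19:11407511-11407660 for Ms4a4c.
Ms4a4b: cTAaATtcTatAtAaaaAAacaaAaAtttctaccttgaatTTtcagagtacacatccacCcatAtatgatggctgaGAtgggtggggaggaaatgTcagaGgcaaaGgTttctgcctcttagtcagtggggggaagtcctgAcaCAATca
Ms4a4c: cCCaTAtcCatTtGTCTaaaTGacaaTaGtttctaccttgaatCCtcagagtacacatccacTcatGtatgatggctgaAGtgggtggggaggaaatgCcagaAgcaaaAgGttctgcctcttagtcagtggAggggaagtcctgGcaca
Of 146 aligned bases 124 were identical, and the annotated gene start of Ms4a4c lies further upstream than the RefSeq start used here.

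Ms4a6c and Ms4a6b formed the other pair with a similar start region, shown because one was a myeloid and the other mainly a T cell transcript in these data. Capitals mark the letters GAAAGTGAA, a form of the interferon regulatory factor (IRF) motif, and AGGAAGT, a form of the ETS motif, each searched on both strands. The forward strand stretches run over chr19:11469228-11469367 for Ms4a6c and chr19:11518349-11518558 for Ms4a6b (RefSeq, GRCm38.p6).
Ms4a6c: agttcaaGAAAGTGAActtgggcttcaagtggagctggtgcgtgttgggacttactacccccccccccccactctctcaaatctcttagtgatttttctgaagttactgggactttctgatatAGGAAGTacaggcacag
Ms4a6b: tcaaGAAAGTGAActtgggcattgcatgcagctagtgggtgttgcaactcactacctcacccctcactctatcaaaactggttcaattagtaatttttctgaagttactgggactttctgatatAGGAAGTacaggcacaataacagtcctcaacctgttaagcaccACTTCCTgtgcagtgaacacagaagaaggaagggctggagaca
The IRF letters began 133 bases before the start of Ms4a6c and 206 bases before that of Ms4a6b, and occurred in 0.481% of 32851 promoters over the 250 bases before the start. The annotated gene start of Ms4a6b, like that of Ms4a4c, lies further upstream than the RefSeq start used here. The ETS letters stood in both, with a second copy on the other strand in Ms4a6b, and in 7.69% of all promoters. For Ms4a2 the last 60 bases before the start (chr19:11623720-11623779, reverse strand) are shown with the GATA letters AGATAA of either strand in capitals, as GATA2 is a basophil factor.
Ms4a2: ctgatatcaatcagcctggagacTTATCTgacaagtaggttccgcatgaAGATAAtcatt
These letters occurred in 9.99% of promoters, and a further copy lay 224 bases before the start of Ms4a2. The RefSeq table held a promoter for 6 of the 7 members, and all matches are descriptions of letters, chosen after the sequences were seen.

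Levels are given as CPM, the UMIs of a gene scaled to 1000000 UMIs summed over all cells of a group. Depth differed between the libraries, with a median of 3298 UMIs per TG cell (range 1321 to 18041) and 2653.5 per WT cell (range 1010 to 21700), and 36 cell barcodes occurred among the named cells of both libraries. Some deposited labels went against their markers. The cells called Mono (cluster 5) carried the neutrophil genes S100a8, S100a9, Csf3r and Retnlg at a summed 62244 CPM in TG and 42308 in WT. Macro was made of cluster 15 (Csf1r and Cd209a), cluster 22 (the dendritic gene Xcr1) and, in WT, cluster 27 (the macrophage genes C1qa and Vsig4). Cluster 17 of the mature B cells held B and T cell transcripts together, and 96.6% of its TG and 87.7% of its WT cells had markers of 2 lineages. The NK clusters 3 and 11 of TG carried Cd3e at 1608 and 1401 CPM, against 122 and 130 in WT. Cluster 10, labelled immature B, had no more of the immature genes Vpreb3, Cd24a and Cd93 than the mature B cluster 1 in either library. Tgfbr2 stood at 378 CPM in TG and 221 in WT CD4 T cells and at 296 and 153 in CD8αβ T cells. The transgene is a form of the human receptor gene, and whether its reads are counted under mouse Tgfbr2 was not tested.

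The members divided the immune cells between them. Ms4a2 marked basophils, Ms4a4b and Ms4a6b filled T, NKT and, for Ms4a4b, NK cells, Ms4a4c was shared by B cells, cluster 15 of the Macro label and CD8αβ T cluster 13, and Ms4a6c and Ms4a6d were highest in cluster 15. Over all named cells the TG and WT libraries gave 16213 and 17346 UMIs of Ms4a4b, 4334 and 5964 of Ms4a6b, 1543 and 1166 of Ms4a4c, 753 and 1278 of Ms4a6c, 237 and 236 of Ms4a6d and 186 and 48 of Ms4a2. These are descriptions, since the deposited clusters were built on these genes among others.

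**Figure D1:**
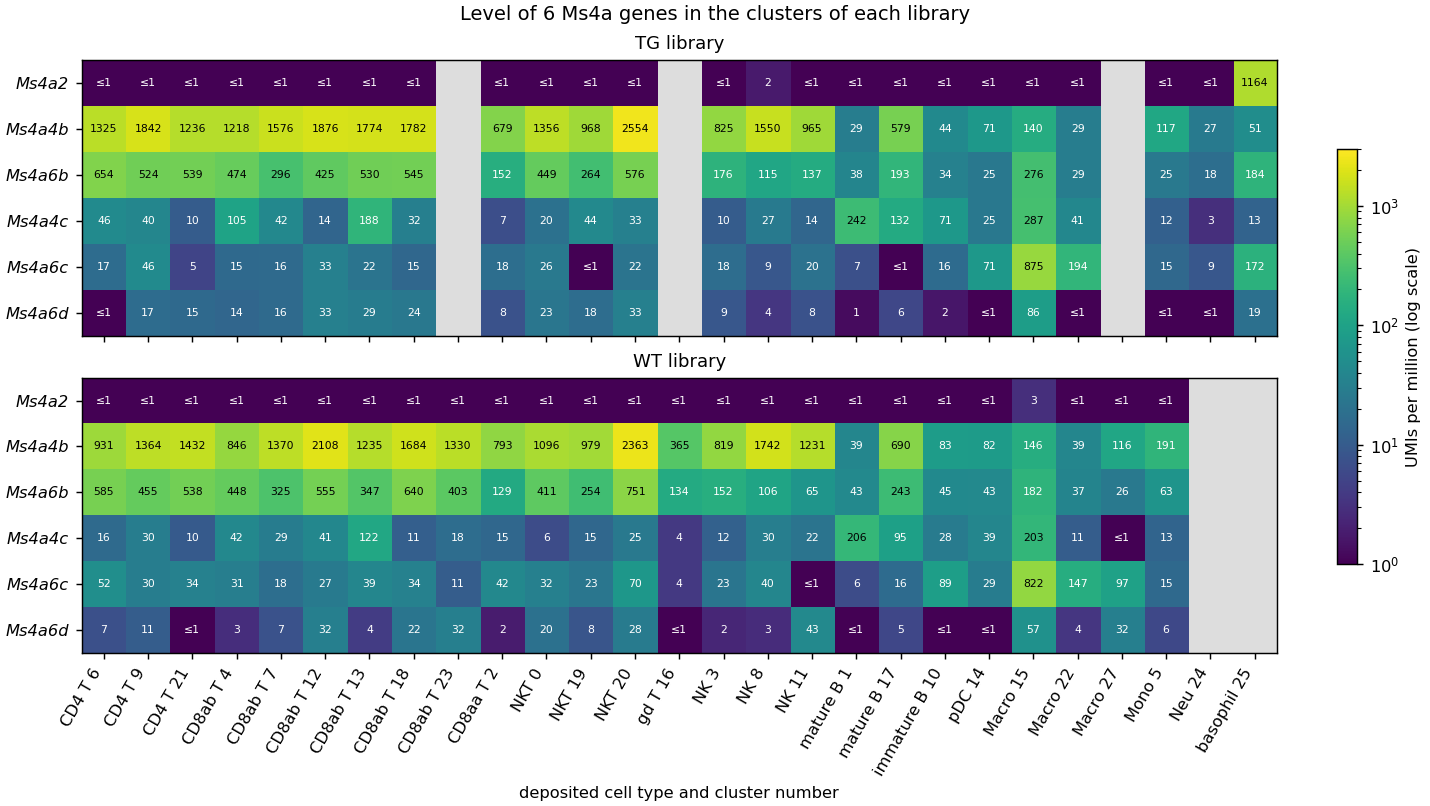
Level in CPM of 6 members (rows) in the deposited clusters (columns, with the cell type), the TG library above and the WT library below, with a log colour scale and the value printed in each field, and grey where a library held fewer than 20 cells of the cluster. In TG Ms4a2 is high in cluster 25 alone, Ms4a4b runs through the T, NKT and NK columns, and Ms4a6c peaks in cluster 15 at 875 and 822.

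Ms4a2 was found mainly in basophils. The basophil cluster 25 gave 183 UMIs from 45 TG cells, 1164 CPM (interval 1001 to 1345), and 43 UMIs from 16 WT cells, 994 CPM (719 to 1339), so the intervals overlapped. A UMI was seen in 91.1% of the TG and 87.5% of the WT basophils, and after every cell was thinned to 1000 UMIs in 53.3% (37.9 to 68.3) and 75.0% (47.6 to 92.7). Basophils were 0.968% of the TG cells and held 98.4% of the Ms4a2 UMIs, and 0.220% of the WT cells and held 89.6%. In every other cluster with at least 20 cells the level was 2.94 CPM or lower. In cells of neither basophil nor mast cell kind the share with a UMI therefore sat near 0, for example 0.0973% in mature B cluster 1 of TG.

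The partners of Ms4a2 in FcεRI followed it only in part. Fcer1a, the IgE binding α chain, stood at 903 and 693 CPM in TG and WT basophils and at 0 in cluster 15 of both libraries. Fcer1g, the signalling γ chain that also serves other receptors, stood at 1755 and 1063 in basophils but at 2691 and 1677 in cluster 15. The mast cell gene Kit was at 0 in the basophils of both libraries, while Mcpt8, a basophil protease gene, reached 3643 and 2913.

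A UMI of Ms4a4b was found in 95.7% of TG and 90.4% of WT NKT cells, in 95.4% and 88.5% of CD8αβ T cells, in 90.8% and 84.1% of CD4 T cells, in 87.7% and 86.3% of NK cells and in 80.2% and 76.8% of CD8αα T cells. With each cell thinned to 1000 UMIs the shares were 74.2% and 63.9% in NKT, 71.0% and 63.0% in CD8αβ T, 71.0% and 61.4% in CD4 T, 59.4% and 65.5% in NK and 44.6% and 45.4% in CD8αα T cells. The order of the libraries thus turned in NK and in CD8αα T cells, in both with intervals that overlapped. Its highest level in both libraries was in NKT cluster 20, with 2554 CPM in TG (2237 to 2902) and 2363 in WT (2207 to 2529). The main NKT cluster 0 stood at 1356 (1299 to 1415) and 1096 (1069 to 1124), which put cluster 20 higher by a log2 ratio of 0.91 in TG (0.71 to 1.11) and 1.11 in WT (1.00 to 1.21). Cluster 20 was also the interferon cluster of the T lineage: the list of 12 interferon-stimulated genes summed to 6270 and 6359 CPM there, against 1478 and 1102 in cluster 0. The part of that response in the Ms4a4b level was not tested.

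Within CD8αβ T cells, Ms4a4b was lowest in cluster 4, the cluster with the most Ccr7, a homing receptor gene of naive T cells. It reached 1218 CPM in TG and 846 in WT in cluster 4, and 1876 and 2108 in cluster 12. The log2 ratio of cluster 12 over 4 was 0.62 in TG (0.50 to 0.75) and 1.32 in WT (1.15 to 1.48). Cluster 13 lay above cluster 4 by almost the same log2 ratio in both libraries, 0.54 in TG (0.43 to 0.66) and 0.55 in WT (0.39 to 0.70).

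CD8αα T cells (cluster 2) held 679 CPM of Ms4a4b in TG (635 to 725) and 793 in WT (720 to 871). In TG this was lower than cluster 4 by 0.84 on the log2 scale, and in WT the log2 ratio was -0.09 with an interval from -0.26 to 0.07. The γδ T cells (cluster 16) of WT were lower again at 365 (316 to 420), and 42.2% of them had a UMI against 90.0% of NKT cluster 0, or 22.9% against 63.5% after thinning. The TG library held only 17 γδ T cells.

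Ms4a4b was not a T cell transcript alone. NK cluster 8, in which Cd3e stood at 133 CPM in TG and 67.5 in WT, carried Ms4a4b at 1550 (1449 to 1656) and 1742 (1647 to 1841). NK cluster 3 carried 825 and 819, so that cluster 8 exceeded it by a log2 ratio of 0.91 in TG (0.76 to 1.06) and 1.09 in WT (0.95 to 1.22).

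Among clusters with at least 20 cells, the top of the order was cluster 20 in both libraries, followed by cluster 12 with an overlapping interval in WT and one that stood apart in TG. In WT all neighbours from NK cluster 8 down to cluster 17 overlapped in their intervals. In TG the intervals also stood apart from cluster 13 to 7, from NK cluster 8 to NKT cluster 0, from NK cluster 11 to 3 and from NK cluster 3 to CD8αα cluster 2, and in WT from cluster 12 to NK cluster 8. In WT, cluster 17 at 690 was followed by γδ T cells at 365 and Mono at 191, with no overlap at either step, and mature B cluster 1 was last at 38.8. In TG, cluster 17 at 579 was followed by cluster 15 at 140.

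**Figure D2:**
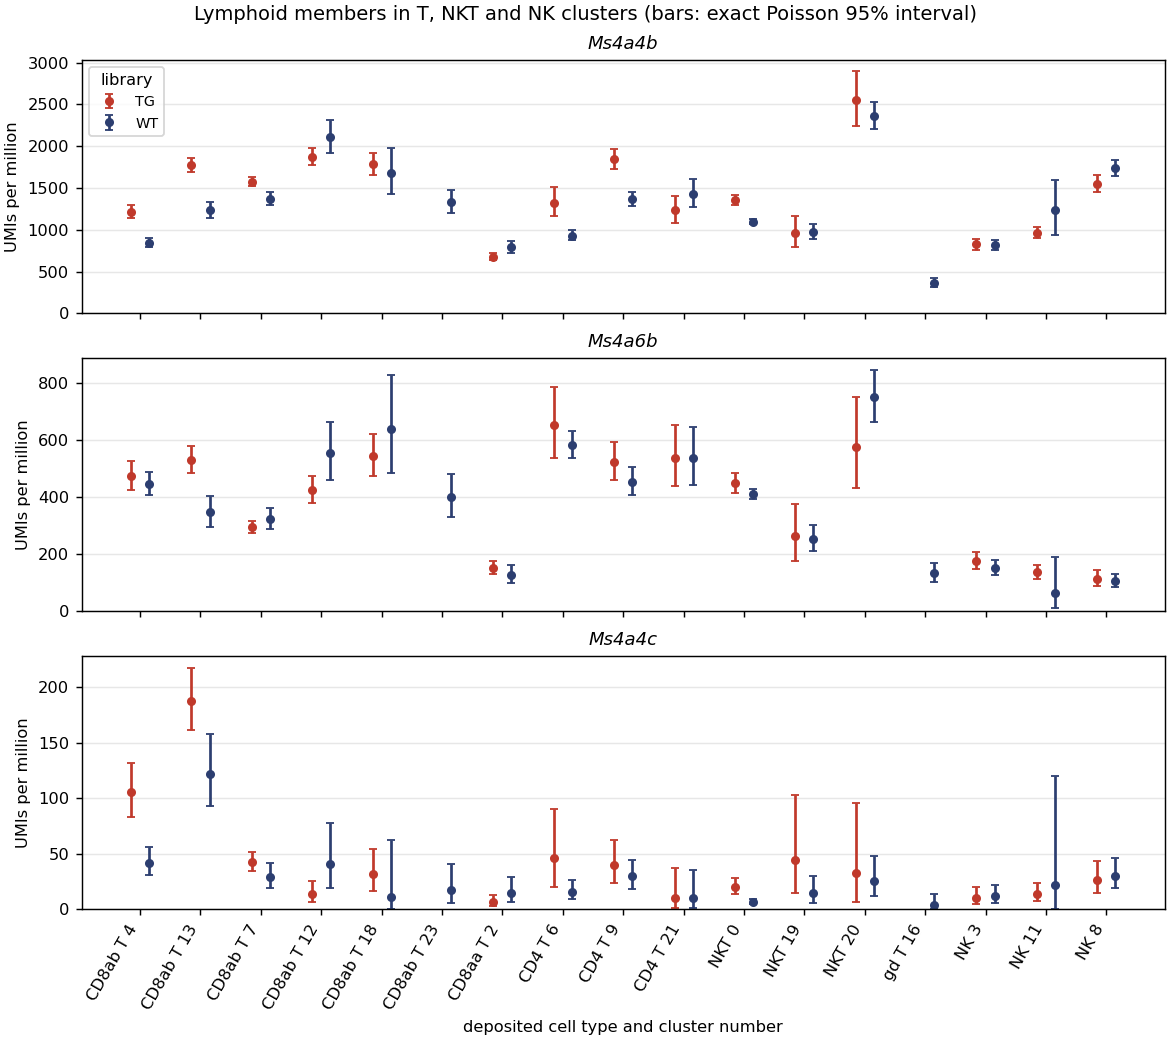
Levels in CPM (axis: UMIs scaled as counts-per-million) of Ms4a4b, Ms4a6b and Ms4a4c (panels, linear axes from 0) in the T, NKT and NK clusters, TG in red and WT in blue, with exact Poisson 95% intervals for counting error. Ms4a4b peaks in NKT cluster 20 and Ms4a4c in CD8αβ cluster 13, and Ms4a6b is low in cluster 2 and in the NK clusters.

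Ms4a6b was a T and NKT cell transcript with lower levels in NK cells. CD4 T cluster 6, with high Ccr7, held 654 CPM in TG (539 to 785) and 585 in WT (538 to 634). NKT cluster 20 held 576 (431 to 753) and 751 (664 to 847), and its log2 ratio over cluster 0 was 0.36 in TG, with an interval from -0.07 to 0.76, and 0.87 in WT (0.68 to 1.05).

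The clusters labelled NK separated Ms4a6b from Ms4a4b. NK cluster 8 had 115 CPM of Ms4a6b in TG and 106 in WT, while cluster 3 had 176 and 152, log2 ratios of -0.62 (-1.06 to -0.18) and -0.52 (-0.95 to -0.10). Ms4a4b went the other way between the same clusters in both libraries. TG cluster 3 carried Cd3e, as given above, so in TG this contrast is not between NK cells alone.

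CD8αα T cells were low in Ms4a6b too, at 153 CPM in TG (132 to 175) and 129 in WT (101 to 163), against 474 and 448 in CD8αβ cluster 4. The log2 ratios were -1.64 (-1.89 to -1.38) and -1.80 (-2.18 to -1.43), larger in WT than the difference for Ms4a4b between those clusters, where the interval held 0. The γδ T cells of WT stood at 134 (104 to 169). The CD8αα label covered unlike cells in the libraries, since its γδ receptor gene Trdc was at 95.1 CPM in TG and 855 in WT, and its part in these levels was not tested.

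Ms4a6b was also present in cluster 15, at 276 CPM in TG (229 to 329) and 182 in WT (152 to 218). Cluster 22 was lower, at 29.4 and 37.2, by log2 ratios of 3.23 (1.97 to 4.88) and 2.29 (1.62 to 3.04). In the mature B cluster 1 the level was 38.3 and 42.7. TG basophils held 184 CPM of Ms4a6b (123 to 265), from 29 UMIs, and the 16 WT basophils had 5 UMIs.

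Ms4a4c followed another map, although its protein and start region are those closest to Ms4a4b. It was highest in cluster 15 with 287 CPM in TG (239 to 342) and 203 in WT (171 to 240), and in mature B cluster 1 with 242 (225 to 260) and 206 (190 to 224). A UMI was found in 45.1% of TG and 30.3% of WT cells of cluster 1, and in 21.1% and 16.3% after every cell was thinned to 1000 UMIs. In Mono cells the shares were 2.45% and 1.55%.

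Among CD8αβ T cells Ms4a4c was highest in cluster 13. This cluster held 188 CPM in TG (162 to 217) and 122 in WT (92.9 to 157), and cluster 4 held 105 and 42.0, log2 ratios of 0.84 (0.44 to 1.24) and 1.54 (0.95 to 2.14). In cluster 12 the level was 13.6 in TG and 41.0 in WT, and in CD8αα T cells 6.79 and 14.5. The NKT cluster 0 of WT was lower still, at 6.42 (4.52 to 8.84).

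Ms4a6c was a transcript of cluster 15. It stood there at 875 CPM in TG (790 to 967) and 822 in WT (756 to 894), with a UMI in 78.7% and 76.6% of cells, and in 48.3% and 50.6% after thinning. The Xcr1 cluster 22 came next with 194 (134 to 273) and 147 (117 to 182), and the C1qa cluster 27 of WT had 96.5 (54.0 to 159). Cluster 15 over cluster 22 gave log2 ratios of 2.17 (1.66 to 2.73) and 2.48 (2.15 to 2.83), and cluster 15 over cluster 27 one of 3.09 (2.36 to 3.94). TG basophils carried 172 (113 to 250), and the Mono cells with neutrophil genes 15.04 in TG and 15.31 in WT.

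Ms4a6d was scarce in the named cells. Cluster 15 was highest with 85.9 CPM in TG (60.8 to 118) and 57.4 in WT (40.8 to 78.4), from 38 and 39 UMIs. NKT and CD8αβ T cells had a low level, for example 23.1 and 20.1 in NKT cluster 0 and 32.7 and 31.9 in CD8αβ cluster 12, while mature B cluster 1 had 1.28 in TG and no UMI in 1329 WT cells, which allows up to 0.226% of cells with a UMI at this depth and sets no limit on cells that express the gene.

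Ms4a7 was close to undetected in the library files of the named cells, with 6 UMIs in TG and 10 in WT. Of the WT UMIs 6 lay in 3 of 158 cells of cluster 15, and the C1qa cluster 27, where a macrophage gene would be looked for, had no UMI in 23 cells. At this depth a share of up to 13.04% of cells with a UMI was allowed there.

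Over 23 profiles (each a cell type of 1 library with at least 20 cells), 10812 genes with at least 100 UMIs were ranked by their likeness to each member. The gene most like Ms4a2 was Fcer1a with a Pearson r of 0.97, then Cd200r3 and Mcpt8. TG basophils were the only basophil profile, since WT held 16 such cells, so the values of Ms4a2 rest largely on that profile. Ms4a4b was most like Lck (0.97), a kinase of the T cell receptor, then Trbc2 and Sh2d1a. Ms4a6b was most like Arl4c (0.90), Ms4a4c like Btla (0.83), Ms4a6c like Gusb (0.85) and Ms4a6d like Otulinl (0.79). Between members, r was 0.82 for Ms4a4b with Ms4a6b, 0.76 for Ms4a6b with Ms4a6d, 0.57 for Ms4a6c with Ms4a6d and -0.16 for Ms4a4b with Ms4a4c. The profiles share libraries and depth, so these values describe likeness only.

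Low UMI counts of the T cell members in other cells need a T cell transcript beside them. In T and NKT cells together there were 1.18 UMIs of Ms4a4b per Cd3e UMI in TG and 1.10 in WT. The ratio was 0.88 and 1.23 in Mono cells, 0.87 and 1.16 in pDC and 0.80 and 1.13 in cluster 17. The source of the Ms4a4b UMIs in these cells was not tested, and its level there is not read as expression by the labelled cell type. In mature B cluster 1 the ratio was 0.44 in TG and 1.196 in WT. It was 0.67 and 1.62 in cluster 15, 0.50 and 1.00 in cluster 22 and 0.82 in WT cluster 27. In cluster 10 it was 0.71 and 1.35, and in neutrophil cluster 24 it was 0.60 and 1.375. Basophils gave 1.33 and 2.50, the latter from 15 Ms4a4b and 6 Cd3e UMIs. For Ms4a6b, cluster 15 had 1.33 and 2.03 UMIs per Cd3e UMI, against 0.32 and 0.40 in T and NKT cells. Basophils had 4.83 in TG and 0.83 in WT, from 29 and 5 Ms4a6b UMIs. Mature B cluster 1 had 0.57 and 1.32, cluster 22 had 0.50 and 0.95 and cluster 10 had 0.54 and 0.74. Mono cells had 0.19 and 0.41, and pDC 0.30 and 0.61.

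**Figure D3:**
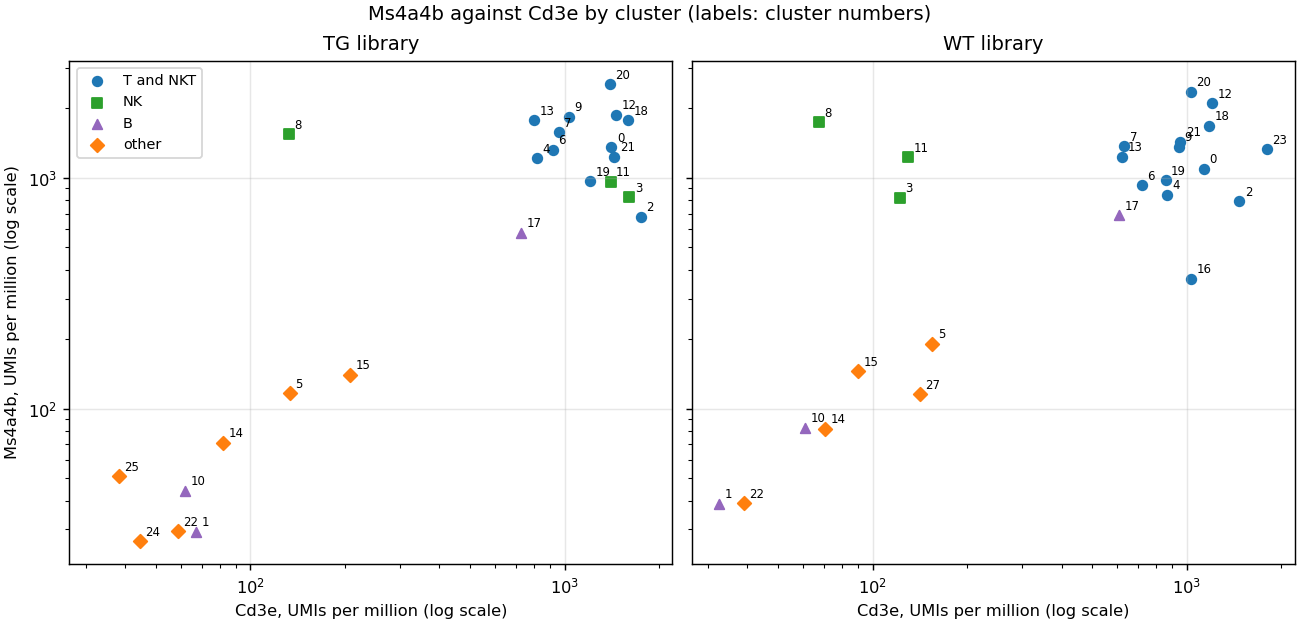
Ms4a4b against Cd3e, both as CPM on log axes, 1 point per cluster with its number, TG left and WT right, coloured by lineage. NK cluster 8 sits high in Ms4a4b at low Cd3e in both panels, TG NK clusters 3 and 11 sit with the T cells, cluster 17 of the B cells sits beside them, and the other B and myeloid clusters lie low on both axes.

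The comparison of TG with WT covered 10 cell types with at least 20 cells in each library. A member was counted as different when its level differed at least 2-fold, with at least 10 UMIs over both libraries and an exact conditional interval of the log2 ratio that left out 0. Of 46 pairs of member and cell type, 5 were higher in TG, 4 were lower and 37 were neither. Between 2.23% and 4.1% of all genes passed the same rule in the direction and cell type of these calls, and the log2 ratio was above 0 in 23 pairs and below 0 in 23. Ms4a2 could be compared in none of these types. With each cell thinned to 1000 UMIs, 4 of the 9 stayed past the rule, namely Ms4a4c in NKT and Macro cells, Ms4a6b in Mono cells and Ms4a4b in mature B cells. The thinned Mono ratio was -3.25 with a wide interval, from -8.66 to -0.49. The Macro, Mono and mature B values have further limits, given below, so passing here does not make them firm.

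Ms4a4b, the most deeply counted member, differed by less than 2-fold within each T cell type. CD4 T cells had 1596 CPM in TG and 1149 in WT, a log2 ratio of 0.47 (0.38 to 0.57), and CD8αβ T cells 1623 and 1228, a log2 ratio of 0.40 (0.35 to 0.46). NKT cells were higher in TG by 0.27 (0.20 to 0.34), while NK cells (-0.23, -0.32 to -0.15) and CD8αα T cells (-0.22, -0.39 to -0.06) were lower. For scale, the median absolute log2 ratio of all genes with enough UMIs was 0.29 in CD8αβ T cells and 0.36 in CD4 T cells, both below the Ms4a4b ratio there. The CD4 T cells of the libraries were spread differently over clusters, with 58 TG and 397 WT cells in cluster 6 (log2 ratio 0.51, 0.29 to 0.72), 132 and 272 in cluster 9 (0.43, 0.30 to 0.57) and 48 and 65 in cluster 21 (-0.21, -0.46 to 0.04). The NK cells of the libraries lay in different clusters, with 153 TG and 287 WT cells in cluster 8 and 343 and 22 in cluster 11. Within clusters the ratio was 0.01 in cluster 3 (-0.15 to 0.17), -0.17 in cluster 8 (-0.29 to -0.04) and -0.35 in cluster 11 (-0.74 to 0.06). Clusters 3 and 11 carried Cd3e in TG far above WT, as given above. Their ratios, and that of all NK cells, therefore do not compare NK cells alone. Within CD8αβ T cells the ratio was 0.53 in cluster 4 (0.39 to 0.66) and 0.52 in cluster 13 (0.39 to 0.66), but -0.17 in cluster 12 (-0.32 to -0.01).

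The 1 large difference of Ms4a4b was in mature B cells, with 58.9 CPM in TG and 171 in WT, a log2 ratio of -1.54 (-1.78 to -1.30), where 2.54% of all genes were lower by the same rule. Of the 615 WT UMIs 503 came from cluster 17, whose 155 WT cells held both T and B cell transcripts, and of the 198 TG UMIs 105 came from its 29 TG cells. In cluster 1 alone the levels were 29.3 and 38.8, a log2 ratio of -0.40 with an interval from -0.82 to 0.01, so the difference rested on cluster 17.

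Ms4a6b was nearly level between the libraries in T cells taken by type. CD8αβ T cells had 402 CPM in TG and 404 in WT (log2 ratio -0.01, -0.11 to 0.10), NKT cells 444 and 418 (0.09, -0.03 to 0.20) and CD4 T cells 554 and 530 (0.06, -0.10 to 0.22). Within CD8αβ T cells it was 0.61 in cluster 13 (0.36 to 0.87) and -0.39 in cluster 12 (-0.69 to -0.07). In clusters 4, 7 and 18 the intervals held 0. In Mono cells Ms4a6b was 25.1 and 63.1, a log2 ratio of -1.33 (-2.32 to -0.41), where 4.0% of genes were lower. That value rests on 15 and 33 UMIs, and Ms4a4b was lower there too by 0.71. The T cell markers summed to 610 and 945 CPM in the same cells. There were 0.21 and 0.33 UMIs of Ms4a6b per Ms4a4b UMI, against 0.27 and 0.36 in T and NKT cells. The source of these UMIs was not tested, and this level too is not read as expression by the labelled cell type. Without the cells marked as doublets by Scrublet the log2 ratio was -0.85, with an interval from -2.10 to 0.35.

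The log2 ratio of Ms4a4c was above 0 in 6 of the 10 types and below 0 in the other 4, CD8αα T cells (-1.10), pDC (-0.65), NK (-0.38) and Mono cells (-0.19), whose intervals all held 0. NKT cells had 22.1 CPM in TG and 8.03 in WT, a log2 ratio of 1.46 (0.83 to 2.08), where 3.91% of all genes were higher. Cluster 10, labelled immature B, had 71.2 and 27.5 (1.37, 0.74 to 2.04), where 2.23% of genes were higher, but the log2 ratio was 0.92 (0.29 to 1.59) with equal weight for each cell and 0.39, with an interval that held 0, with each cell thinned. Macro cells had 219 and 103 (1.09, 0.74 to 1.44), where 4.1% of genes were higher.

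Smaller differences of Ms4a4c in the same direction were found in CD8αβ T cells, with 72.6 and 47.3 CPM (log2 ratio 0.62, 0.34 to 0.90), and mature B cells, with 236 and 184 (0.36, 0.21 to 0.51). In CD8αβ T cells the ratio was 1.33 in cluster 4 (0.77 to 1.897) and 0.62 in cluster 13 (0.19 to 1.07), from 182 and 59 UMIs. It was 0.55 in cluster 7 (-0.07 to 1.22), from 102 and 27 UMIs. Cluster 12, with 10 and 9 UMIs, gave -1.59 (-3.04 to -0.11). Cluster 18, with 13 TG UMIs and 1 WT UMI, gave 1.49 with an interval from -1.24 to 6.90. The Macro value depended on which clusters were counted, since WT Macro cells held 80 cells of cluster 22 and 23 of cluster 27, both low in Ms4a4c. In cluster 15 alone the log2 ratio was 0.50 (0.14 to 0.86), and in cluster 22 it was 1.96 (0.16 to 3.80), from 7 and 6 UMIs.

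The list of interferon-stimulated genes was measured beside Ms4a4c. Its summed level was 1737 CPM in TG and 1447 in WT NKT cells, 1755 and 922 in Macro cells, 907 and 586 in cluster 10, 982 and 607 in mature B cells and 1035 and 1043 in CD8αβ T cells. It was also higher in TG in CD4 T cells (2024 and 1368), where the interval of the Ms4a4c ratio held 0, and in the 4 types with a Ms4a4c ratio below 0, with 5665 and 2179 in Mono cells, 1714 and 1494 in pDC, 990 and 833 in CD8αα T cells and 802 and 785 in NK cells. The Ms4a4c ratio of CD4 T cells was 0.74 (-0.0016 to 1.47). Ms4a4c had 9 and 8 UMIs in CD8αα T cells and 7 and 7 in Mono cells. In pDC it had 7 and 41 and in NK cells 36 and 33, and the intervals of these 4 types held 0. The interval ran from -2.64 to 0.48 in CD8αα T cells and from -1.94 to 1.55 in Mono cells. It ran from -2.05 to 0.52 in pDC and from -1.10 to 0.35 in NK cells. No interval was computed for the list, and whether the list and Ms4a4c moved together was not tested. The part of the list in the Ms4a4c values was not tested.

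Ms4a6c gave both the lowest and a high ratio. Cluster 10, labelled immature B, had 16.4 CPM in TG and 89.5 in WT, a log2 ratio of -2.45 (-3.23 to -1.74), from 20 and 91 UMIs, where 2.5% of genes were lower. With each cell thinned it was -1.07, with an interval from -2.95 to 0.57. The UMIs came from 12 of 193 TG cells and 38 of 202 WT cells. CD8αα T cells, in which Trdc differed as given above, had 18.1 and 41.8 (-1.21, -2.09 to -0.32), where 2.23% of genes were lower. In pDC the level was 71.3 and 28.6 (1.32, 0.42 to 2.18), where 2.7% of genes were higher, but 80.0% of the TG UMIs lay in 3 of 46 cells. Smaller differences with intervals below 0 were found in NK (-0.84), NKT (-0.50) and CD8αβ T cells (-0.47). In NK cluster 8, which was low in Cd3e in both libraries, the log2 ratio was -2.18 (-3.90 to -0.79), from 5 and 29 UMIs. In cluster 15, where the gene was highest, the log2 ratio was 0.09 (-0.10 to 0.28).

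Ms4a6d was higher in TG CD8αβ T cells, at 20.9 CPM against 9.79 in WT, a log2 ratio of 1.10 (0.50 to 1.73), from 111 and 30 UMIs, where 3.86% of genes were higher. Cluster 13 had 28.9 and 4.14 from 28 and 2 UMIs, a log2 ratio of 2.80 (0.82 to 5.92), and cluster 4 13.9 and 2.86 from 10 and 3 UMIs, a log2 ratio of 2.28 (0.32 to 4.78), while cluster 12 gave a log2 ratio of 0.04 with an interval from -1.22 to 1.49. The CD8αβ T cells of the libraries lay in different clusters, with 145 TG and 363 WT cells in cluster 4, 319 and 132 in cluster 7 and 249 and 73 in cluster 12, where Ms4a6d stood at 32.7 and 31.9. NKT cells gave 23.2 and 19.7 (0.24, -0.31 to 0.76).

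**Figure D4:**
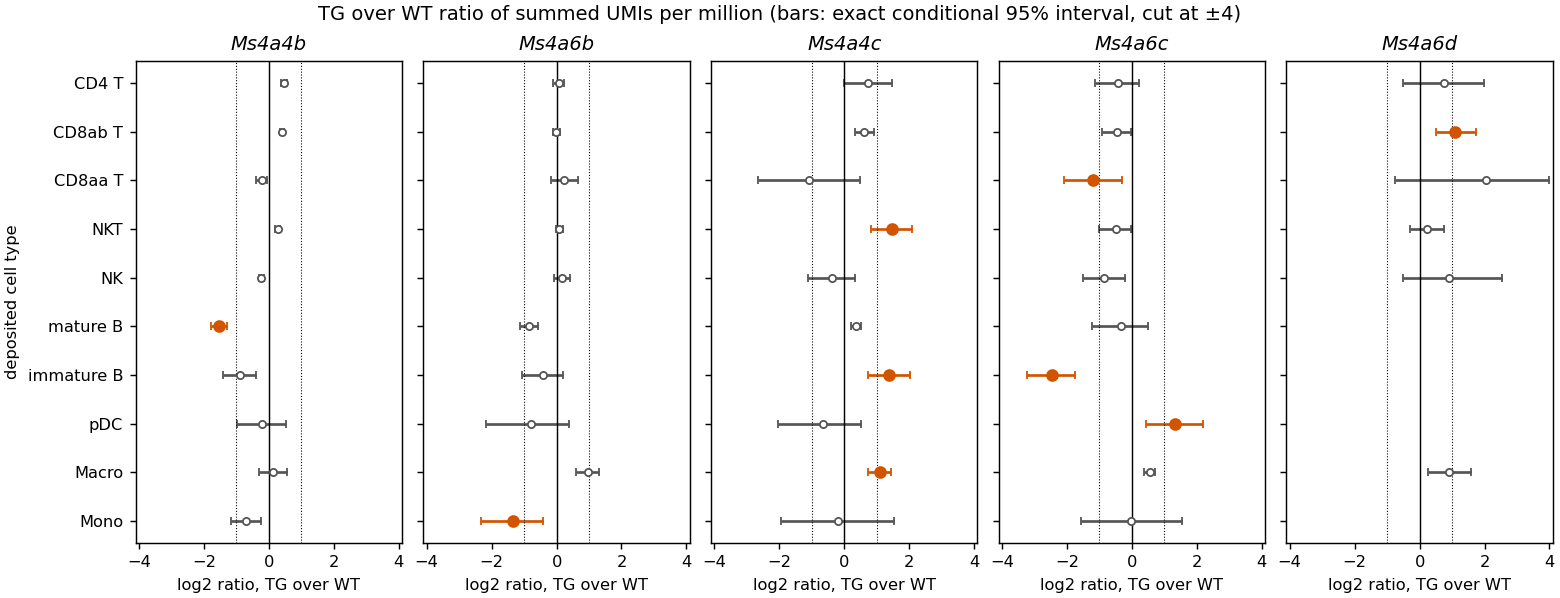
Log2 ratio of TG over WT (horizontal axis) by cell type (rows) for 5 members with at least 10 UMIs over both libraries, bars showing exact conditional 95% intervals cut at ±4, dotted lines 2-fold and filled orange points the 9 pairs past the rule. Ms4a4b and Ms4a6b lie inside the 2-fold lines in T cells with short bars, and Ms4a6c in immature B cells is lowest at -2.45.

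Surface protein and the members could be read in the same cell. In WT CD8αβ T cells, each thinned to 1000 UMIs, cells with an Ms4a4b UMI had a median CD44 of 2.69 (natural log centred ratio over the antibodies of a cell) and those without one 1.89. WT CD4 T cells showed the same pattern, with CD44 at 2.83 and 2.13. In TG CD8αβ T cells the CD44 medians with and without an Ms4a4b UMI were 3.24 and 3.21. These contrasts pool clusters that differ in Ms4a4b and in CD44. WT cluster 4, lowest in Ms4a4b among CD8αβ clusters, had a median CD44 of 1.31, against 3.04 in cluster 12 and 3.10 in cluster 13. WT CD4 cluster 6 had 1.76 and cluster 9 had 3.46, while TG cluster 4 had 3.14. A link within clusters was not tested.

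For Ms4a4c, the 55 TG CD8αβ T cells with a UMI had a median CD44 of 3.33 and the 965 others 3.22, and in WT the medians were 3.11 in 32 cells and 2.46 in 787. For Ms4a6b the CD44 medians of CD8αβ T cells with and without a UMI were 3.229 and 3.230 in TG and 2.50 and 2.49 in WT. These medians are pooled over clusters too.

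GITR, the partner of MS4A4B, was measured as CD357. In TG CD4 T cells its median was 1.47 in 216 cells with an Ms4a4b UMI and 2.98 in 22 without. With each cell thinned the medians were 1.498 in 169 cells and 1.57 in 69, and CD357 made up 2.25% and 3.93% of the antibody counts. With each cell thinned the medians differed by 0.02 in WT CD4 T cells, 0.01 in TG and 0.03 in WT CD8αβ T cells. Regulatory T cells (cluster 21, Foxp3 at 923 and 953 CPM) had the highest CD357, with medians of 2.93 in TG and 1.61 in WT, and a GITR and regulatory T gene list at 5078 and 3310. Their Ms4a4b was 1236 in TG and 1432 in WT, against 1842 and 1364 in the CD4 cluster 9. The log2 ratio of cluster 21 over 9 was -0.58 in TG (-0.79 to -0.37) and 0.07 in WT (-0.12 to 0.26).

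Ms4a4b and Ms4a6b were seen in the same cells. CD4, CD8αβ and CD8αα T cells and NKT cells were pooled for this. Of those with an Ms4a4b UMI after thinning, 32.9% in TG and 35.0% in WT also had an Ms4a6b UMI. Among those without, the shares were 25.2% and 30.5%. CD8αα T cells, low in both genes, were 410 of the 2114 TG and 194 of the 3979 WT cells. A link within a cell type was not tested. In cluster 15, 39.5% of the 43 TG cells with an Ms4a6c UMI had an Ms4a6b UMI against 17.4% of the others, and in WT the shares were 21.25% of 80 cells and 17.9%. These cells share clusters and libraries, so the shares are descriptions.

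Cells with no genotype in the metadata, 5379 of the first library and 16829 of the second, hold the other 2 genotypes and cells left out by the authors, which cannot be told apart here. They were sorted into lineages by fixed transcripts and set beside the named cells of the same library and gate. In the T gate of the second library Ms4a4b was 1785 CPM (1774 to 1797) in unnamed and 1090 (1073 to 1107) in named cells, and Ms4a4c 72.0 (69.7 to 74.4) and 19.8 (17.5 to 22.3). In the first library the order was turned, with Ms4a4b at 1042 and 1308 and Ms4a4c at 29.9 and 41.5.

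In the monocyte or macrophage gate of the first library Ms4a6c was 1482 CPM (1398 to 1571) in 171 unnamed cells and 662 (565 to 771) in 66 named cells, and Ms4a6d was 324 (285 to 366) and 71.8 (42.6 to 114). In the second library Ms4a6c was 874 and 664 and Ms4a6d 97.3 and 81.7. Both members were therefore higher in the unnamed cells of the first library, by log2 ratios of 1.16 (0.93 to 1.41) and 2.17 (1.48 to 2.95).

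The basophil gate of the second library held 136 cells, 0.808% of the unnamed cells, and 12 cells, 0.165% of the named cells. In the first library the order was turned, with 24 unnamed cells (0.446%) and 33 named cells (0.710%). In the second library the gate had Ms4a2 at 1097 CPM (1008 to 1192) and 1245 (877 to 1716), and the intervals overlapped.

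**Figure D5:**
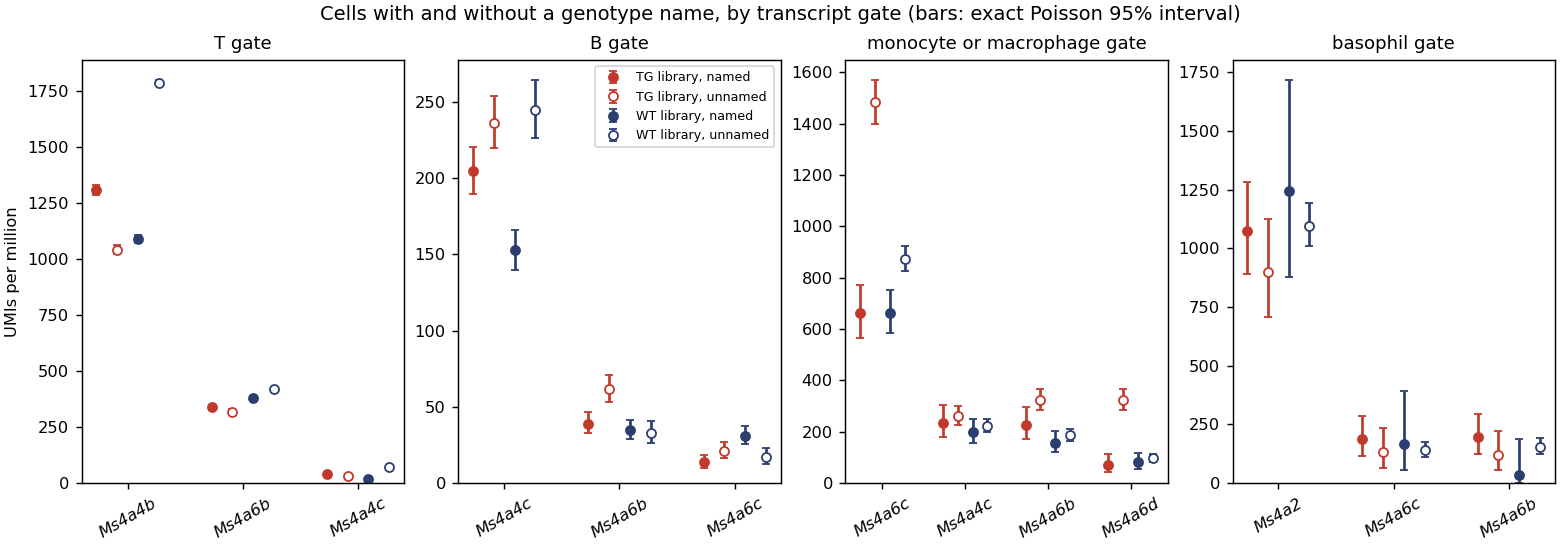
CPM of members in cells with a genotype name (filled) and without (open), TG library in red and WT library in blue, in 4 transcript gates with their own linear axes from 0 and exact Poisson 95% intervals. Unnamed cells stand highest for Ms4a4b in the T gate of the WT library (1785) and for Ms4a6c in the monocyte or macrophage gate of the TG library (1482).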

How the data were processed

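CD45+ liver cells of 2 BD Rhapsody capture libraries were analysed. The authors used the BD Rhapsody pipeline, in which STAR aligned the reads to mm10, and the deposited tables hold UMI counts per gene or antibody and cell, corrected for sequencing errors. The deposited antibody values on the natural log scale are ratios centred within a cell. They were recomputed from the antibody counts, and 0 values differed by more than 1e-05. The authors' filter on cells is not stated. Ms4a7 was not among the genes of the filtered table, and 2 further Ms4a genes were at 0 there in 1 genotype but not in the library files, so Ms4a7 was read from the library files of the same cells. The authors' normalised RNA values were not used.

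Cell types, clusters and genotypes were those of the deposited metadata. Counts were summed per cell type or cluster and library and divided by the summed UMIs (TG 18498476, WT 22216380), as CPM. Intervals are exact Poisson for levels, exact conditional binomial for ratios and Clopper-Pearson for shares, all at 95%, and a count of 0 was read against 3 counts. They cover counting error only. Shares were repeated with each cell thinned to 1000 UMIs. Genes were compared between TG and WT by the 2-fold rule with at least 10 UMIs, and the share of all genes past it in that cell type is given beside each count. Likeness of genes was Pearson's r of log2 (CPM + 1). Gates for cells without a genotype took at least 2 UMIs of the fixed markers of 1 lineage and fewer than 2 of each other lineage. The rule on named genes was the 7 members in their roles and fixed companion lists. The 2-fold rule was run on simulated Poisson counts without variation between libraries or cells, which checks the code and not the calls.

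1 surface protein and its gene are not reported here. Members and lists were chosen with earlier results of these data known. Alternatives were TMM factors, equal weight for each cell, totals that left out ribosomal and mitochondrial genes, thinning, 2 ways of leaving out doublets, no count minimum and the library files. Doublets were kept in the main values. Scrublet marked 0.839% of the TG and 3.31% of the WT cells, and 6.78% and 3.49% had markers of 2 lineages. Software was Python 3.11.15, numpy 2.4.6, pandas 2.3.3, SciPy 1.17.1, scanpy 1.11.5 with Scrublet, Biopython 1.88, matplotlib 3.10.9, R 4.3.3 and edgeR 4.0.16, the last for TMM factors only.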

Additional observations from a re-analysis of the deposited data

Results flagged for a closer look

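Ms4a6c differed in direction between cell types. Its log2 ratio of TG over WT was -1.21 in CD8αα T cells and -2.45 in the cells labelled immature B, but 1.32 in pDC. The intervals on either side did not overlap, but with each cell thinned to 1000 UMIs the ratios were -1.08 (-2.36 to 0.20), -1.07 (-2.95 to 0.57) and 1.99 (-0.06 to 3.96), intervals that overlapped and held 0. In pDC 80.0% of the TG UMIs lay in 3 cells. The difference between cell types was not tested, since there was 1 library for each genotype.

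Several Ms4a genes outside the comparisons gave UMIs in the cells without a genotype name, above the 3 counts that a count of 0 allows. Ms4a7 had 24 UMIs in the first library and 9 in the second. Ms4a3, a gene of granulocyte progenitors and basophils, had 35 and 499, against 11 and 16 in the named cells. In the basophil gate of the second library Ms4a3 stood at 170 CPM (136 to 209) in 136 unnamed cells and 67.3 (8.15 to 243) in 12 named cells. Of the 87 Ms4a3 UMIs of these unnamed cells 55.2% lay in 3 cells, and 8.82% of the cells had a UMI. Ms4a4a had 45 and 42 UMIs, Ms4a4d 67 and 452, and Ms4a8a 18 and 103 in the unnamed cells of the first and second library. Genotype and author filters cannot be told apart for any of these cells.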

How the results depend on the processing

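Across the settings the count of pairs higher in TG ran from 3 to 6, against 5, and that of pairs lower in TG from 3 to 4, against 4. With each cell thinned to 1000 UMIs the higher count was 3, of which 2 were among the 5, and the lower count was 4, of which 2 were among the 4, the others being Ms4a6c in CD8αβ T cells (-1.10) and Ms4a4b in cluster 10 (-2.63). None of the 9 ratios past the rule changed sign under the alternatives run. Ms4a4b in pDC, at -0.20 and not past the rule, was 1.24 without cells marked by Scrublet and -1.81 without cells with markers of 2 lineages. Ms4a4c in NKT cells stayed past the rule in all 9 settings. Ms4a4c in Macro cells was 0.99 with TMM factors. With equal weight for each cell 3 ratios fell below 2-fold, Ms4a4c in Macro cells (0.89) and in cluster 10 (0.92) and Ms4a6b in Mono cells (-0.76). Thinning left a 2-fold ratio with an interval that held 0 for Ms4a6c in CD8αα T cells (-1.08) and pDC (1.99) and Ms4a6d in CD8αβ T cells (1.05). In cluster 10, it gave 0.39 for Ms4a4c and -1.07 for Ms4a6c, both with intervals that held 0. A setting chosen after seeing the data (mature B cells without cluster 17, Macro as cluster 15 alone, NK cells without clusters 3 and 11) gave -0.42 for Ms4a4b in mature B cells, 0.50 for Ms4a4c in Macro cells and -2.18 for Ms4a6c in NK cells, from 5 and 29 UMIs. Leaving out cells with markers of 2 lineages gave -0.95 for Ms4a4b in mature B cells. TMM moved the median of all genes by -0.12 in CD4 T cells and -0.10 in Macro cells, and the share of higher among all genes past the rule from 69.0% to 54.2% in CD4 T cells, from 52.6% to 40.2% in Macro cells and from 45.9% to 55.9% in Mono cells. Apart from the settings named, the cause of a change was not tested. No paired analysis was possible because each genotype had 1 library. Depth limits Ms4a6d, Ms4a7 and the pDC and Mono values, which rest on few UMIs.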
